A study of Homo sapiens with 66 samples.

Results

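Binding of HIF-1α and HIF-2α was compared in HKC-8 cells, a human kidney proximal tubule cell line, kept at 3% oxygen for 6 h. Each subunit was mapped by ChIP-seq, which sequences the DNA fragments that an antibody pulls down with a chromatin protein, using a rabbit polyclonal antibody to it, in 2 replicates, and the deposited data for each library are its own list of peaks. Sites were taken as HIF-1-only when both HIF-1α lists and neither HIF-2α list held a peak there, as HIF-2-only in the reverse case, and as sites of both isoforms when all 4 lists did. The 4 lists held 3192 distinct regions, and the 50 ChIP lists of the whole series held 50169. Of the 3192 regions, 24 were HIF-1-only, 96 were HIF-2-only and 7 were sites of both isoforms. A further 12 sites had HIF-1α in both replicates and HIF-2α in 1, and 6 had HIF-2α in both and HIF-1α in 1, so that 145 sites were classed in all. Both isoforms shared 1 input library. The study describes the 2 replicates as independent ChIP-seq experiments, but the sources do not say whether they came from separate cultures, so p-values measure only the spread between these libraries, part of which may be technical. HIF-1β was mapped in the same condition with 2 replicates. The other HKC-8 libraries used below came from cells kept for 6, 16 and 48 h at 0.5% oxygen, and from a separate experiment at 0.5% oxygen for 16 h with wild-type (WT) cells and cells in which the HIF-1α or the HIF-2α gene had been disrupted (HIF-1α KO and HIF-2α KO), each knockout being a single clone. The 50 ChIP lists also include those of RCC4 cells in normoxia and of HepG2 cells at 0.5% oxygen for 16 h.

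Hypoxia-inducible factor (HIF) is a dimer of an oxygen-labile α subunit and the stable β subunit, HIF-1β. In oxygenated cells the α subunits are hydroxylated at prolines, recognised by the von Hippel-Lindau protein and degraded, and in hypoxia they accumulate, pair with HIF-1β and bind the hypoxia response element (HRE), whose core is ACGTG or GCGTG. Both isoforms recognise the same core. HIF-1α is best known for genes of glycolysis and mitophagy, and HIF-2α in kidney for genes of growth factor and matrix biology.

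The lists were short and most of their peaks were not seen again in the second replicate. HIF-1α had 1218 and 652 peaks on chromosomes 1 to 22, X and Y, and HIF-2α had 551 and 966. Read depth is unknown from peak lists, so a site that is missing from a list may lie just under the caller's limit. Of the HIF-1α peaks, 3.61% of replicate 1 and 6.90% of replicate 2 overlapped a peak of the other replicate. For HIF-2α these shares were 19.96% and 11.3%. Peaks found in both replicates looked different from the rest: an HRE core lay within 100 bp of the centre in 93.2% and 88.9% of the replicated HIF-1α peaks, but in 30.3% and 23.7% of the unreplicated ones. For HIF-2α it lay in 60% and 62.4% of the replicated peaks and in 24.9% and 37.5% of the others. In windows 2 kb away from the same peaks the core was present in 18.1% to 30.5%. All results on sites therefore rest on the 43 HIF-1α and 109 HIF-2α sites found in both replicates.

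The 7 sites called by both isoforms included several near genes of glucose and pyruvate metabolism. They lay at ALDOA (aldolase of glycolysis), LDHA (lactate dehydrogenase), PDK1 (the kinase that shuts pyruvate dehydrogenase) and PPP1R3C (a subunit that targets a phosphatase to glycogen), each within 1 kb of the transcription start site (TSS), and away from promoters near SLC2A3 (the glucose transporter GLUT3), NDRG1 and ARRDC3. Each of the 7 held an HRE core and a HIF-1β peak in both HIF-1β replicates. The sequences around the core nearest to the centre are shown for 6 of these sites because they carry the motif that the class shares. They are from the GRCh37 genome, read on the strand that gives the core as ACGTG or GCGTG. Capitals mark HRE cores, AP-1 motifs (TGACTCA or TGAGTCA) and CATTCC, in either orientation.
ALDOA (chr16:30076855-30076915, minus strand): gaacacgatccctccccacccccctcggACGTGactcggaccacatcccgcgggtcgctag
SLC2A3 (chr12:8123394-8123454, minus strand): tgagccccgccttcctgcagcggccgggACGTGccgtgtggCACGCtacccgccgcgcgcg
LDHA (chr11:18415898-18415958, plus strand): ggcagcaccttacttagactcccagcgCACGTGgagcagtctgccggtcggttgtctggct
PPP1R3C (chr10:93392955-93393015, plus strand): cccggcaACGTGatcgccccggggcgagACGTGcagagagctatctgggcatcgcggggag
ARRDC3 (chr5:90576433-90576493, plus strand): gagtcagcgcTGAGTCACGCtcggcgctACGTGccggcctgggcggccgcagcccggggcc
PDK1 (chr2:173420798-173420826, minus strand): ctgccgagtggtACGTGagggACGTGgcg

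Peak scores, which are −10 times the log10 of the caller's p-value, give the order of peaks within a list and are not a measure of binding between lists. At ALDOA (ENSG00000149925.22_15; chr16:30076429-30077183, in an intron, 275 bp upstream of the TSS) the scores were 393 and 274 for HIF-1α and 113 and 290 for HIF-2α. At SLC2A3 (ENSG00000059804.17_10; chr12:8123179-8123732, in an annotated SLC2A3 intron and 34.7 kb upstream of the nearest protein-coding TSS) they were 238 and 180 for HIF-1α and 141 and 285 for HIF-2α. LDHA (ENSG00000134333.15_12; chr11:18415666-18416281) gave 181 and 109 for HIF-1α and 99.4 and 254 for HIF-2α. At these 3 sites no score was near 50, the lowest a list can hold. At PDK1 (ENSG00000152256.14_8; chr2:173420532-173421123, in the 5′ untranslated region) the HIF-1α scores were 293 and 155, while those of HIF-2α were 52.0 and 58.2, close to the limit. The reverse held at the distal site 102.6 kb from ARRDC3 (ENSG00000113369.9_8; chr5:90576197-90576784), which lies in the long non-coding RNA gene LUCAT1: HIF-2α scored 247 and 445 there, and HIF-1α 105.2 and 50.4. PPP1R3C (ENSG00000119938.9_9; chr10:93392786-93393269) scored 159 and 126 for HIF-1α and 63.4 and 107 for HIF-2α. NDRG1, a stress-response gene with a site 73.7 kb upstream, scored 125 and 86.4 for HIF-1α and 154 and 258 for HIF-2α. The 7 sites were widely called, with a peak in 44 to 50 of the 50 ChIP lists of the series (median 49).

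**Figure D1:**
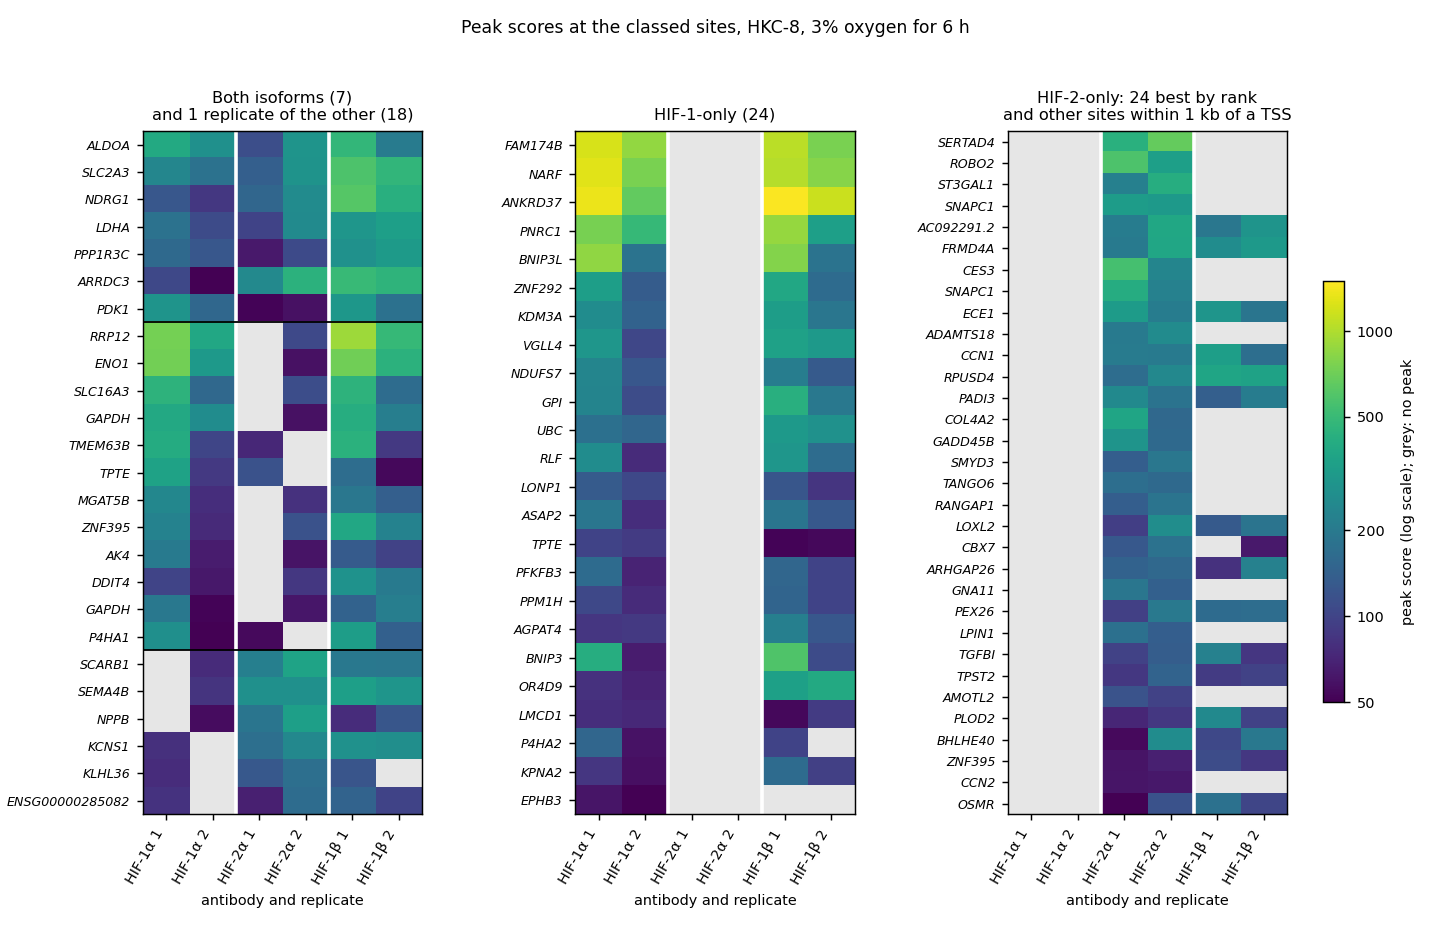
Peak score (colour, log scale) in each replicate of the 3 antibodies (HIF-1α, then HIF-2α, then HIF-1β) at 3% oxygen for 6 h, with 1 row per site, named by its nearest protein-coding gene, and grey where the list had no peak. Left, the 7 sites of both isoforms above the first line, then 12 HIF-1α and 6 HIF-2α sites that had the other isoform in 1 replicate; middle, the 24 HIF-1-only sites, of which 23 had HIF-1β; right, the HIF-2-only sites ranked 1 to 24 and those ranked lower within 1 kb of a TSS, many with no HIF-1β peak.

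HIF-1-only sites already bound in mild hypoxia lay mostly at promoters. Of the 24, 13 (54.2%, 95% CI 32.8% to 74.4%) were within 1 kb of a protein-coding TSS, 2 were at 1 to 10 kb, 5 at 10 to 100 kb and 4 beyond 100 kb, and the median distance was 0.424 kb. The 13 promoters were those of NARF, ANKRD37, FAM174B, PNRC1, ZNF292, RLF, KDM3A, BNIP3, BNIP3L, GPI, P4HA2, LONP1 and NDUFS7. An HRE core was present in 21 of 24 (87.5%, 67.6% to 97.3%) against 22.9% of the control windows (12.03% to 37.3%), and 13 held 2 or more. Numbers of cores per site take a CACGTG as 2, since it reads as ACGTG on each strand. An AP-1 motif was held by 1 of 24. HIF-1β was called at 23 of 24 sites in at least 1 replicate and at 22 in both. Shifting the sites by 10 kb left no HIF-1β overlap, which allows a share of up to 14.2%. Windows are shown for the sites of highest rank and for those near genes of the hypoxic programme, to let the cores be compared.
FAM174B (chr15:93352394-93352454, plus strand): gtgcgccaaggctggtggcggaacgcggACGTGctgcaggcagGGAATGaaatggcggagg
NARF (chr17:80416064-80416092, plus strand): tccgccgagcctACGTGacacgacgtcaa
ANKRD37 (chr4:186317649-186317709, minus strand): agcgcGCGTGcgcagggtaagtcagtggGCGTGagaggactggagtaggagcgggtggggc
PNRC1 (chr6:89791512-89791540, plus strand): tcagcgcgcgctACGTGcccggcgctccg
ZNF292 (chr6:87865258-87865286, plus strand): cattgtgttatCACGTGacccaggtgcgt
KDM3A (chr2:86667951-86667979, minus strand): gcagggaagagaACGTGcggtttcaggcg
VGLL4 (chr3:11684073-11684133, minus strand): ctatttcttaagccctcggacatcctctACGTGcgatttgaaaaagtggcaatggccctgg
GPI (chr19:34850216-34850276, plus strand): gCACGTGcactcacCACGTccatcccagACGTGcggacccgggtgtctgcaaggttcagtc
PFKFB3 (chr10:6243587-6243647, plus strand): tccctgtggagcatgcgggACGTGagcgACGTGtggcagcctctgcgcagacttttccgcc
BNIP3 (chr10:133795690-133795750, plus strand): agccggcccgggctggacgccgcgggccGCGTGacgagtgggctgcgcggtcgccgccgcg
P4HA2 (chr5:131563766-131563826, minus strand): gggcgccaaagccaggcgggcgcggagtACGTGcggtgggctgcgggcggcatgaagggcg

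FAM174B, NARF and ANKRD37 led the HIF-1-only class. At FAM174B (ENSG00000185442.13_14; chr15:93352254-93352755) HIF-1α scored 1216 and 867 and HIF-1β 1054 and 752. At NARF (ENSG00000141562.19_10; chr17:80415817-80416465), whose product binds prelamin A, HIF-1α scored 1289 and 753 and HIF-1β 1030 and 808. At ANKRD37 (ENSG00000186352.9_6; chr4:186317201-186318140), an ankyrin-repeat gene known for its induction by hypoxia, HIF-1α scored 1364 and 664 and HIF-1β 1463 and 1140. At 3% oxygen no HIF-2α peak was called at these 3 promoters in either replicate, although they held the 3 highest HIF-1α scores of the 43 sites in both replicates. At 0.5% oxygen HIF-2α was called at ANKRD37 in 1 replicate at each of 6, 16 and 48 h and in both WT replicates. In the same libraries it was not called at FAM174B or NARF. PNRC1, a nuclear receptor coactivator, scored 747 and 486, and ZNF292, a zinc finger gene with 5 cores in the window, scored 334 and 134.

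Among genes of the textbook hypoxic programme, the mitophagy receptors BNIP3L and BNIP3 were HIF-1-only. BNIP3L scored 855 and 183 for HIF-1α. BNIP3 (ENSG00000176171.12_9; chr10:133795332-133795962) scored 414 and 65.0, so that its second replicate was near the limit. KDM3A (ENSG00000115548.17_7; chr2:86667762-86668206), a histone H3 demethylase, scored 262 and 147. The glycolytic isomerase GPI (ENSG00000105220.17_17; chr19:34849965-34850552) scored 231 and 111 and had 7 cores within 100 bp of the centre (a CACGTG counting as 2). PFKFB3, the kinase that makes the activator of phosphofructokinase, was called 1.17 kb upstream of its nearest TSS with 164 and 70.4. P4HA2, a collagen prolyl hydroxylase, scored 154 and 58.7. At the mitochondrial protease gene LONP1 the scores were 133 and 104, and at NDUFS7, a subunit of respiratory complex I, 236 and 126, the latter with no HRE core in its window. These scores were lower than those of the 3 leading promoters. Over the 24 sites the HIF-1α score had a median of 211 in replicate 1 (60.4 to 1364) and 97.2 in replicate 2 (50.1 to 867).

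Not all HIF-1-only calls were equally firm. The lowest-ranked site, 72.9 kb from EPHB3, scored 60.4 and 50.1, had no HIF-1β peak and was called in only these 2 of the 50 lists. A site at MIR3687 on the short arm of chromosome 21, with its neighbour 0.333 kb away at MIR3648, lies in sequence with near-identical copies elsewhere, so that both are uncertain. The 24 sites were called in a median of 34 of the 50 lists (range 2 to 46).

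HIF-2-only sites were mostly distal. Of the 96, only 8 (8.33%, 95% CI 3.67% to 15.8%) lay within 1 kb of a protein-coding TSS, 15 at 1 to 10 kb, 57 at 10 to 100 kb and 16 beyond 100 kb, and the median distance was 33.4 kb. Their centres were in introns at 32 sites, between genes at 30 and in non-coding genes at 26. The 8 promoters were those of TGFBI, TPST2, AMOTL2, PLOD2, BHLHE40, ZNF395, CCN2 and OSMR. Their 95% interval did not overlap that of the HIF-1-only class. Sites are not replicates, and this describes these 4 libraries.

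**Figure D2:**
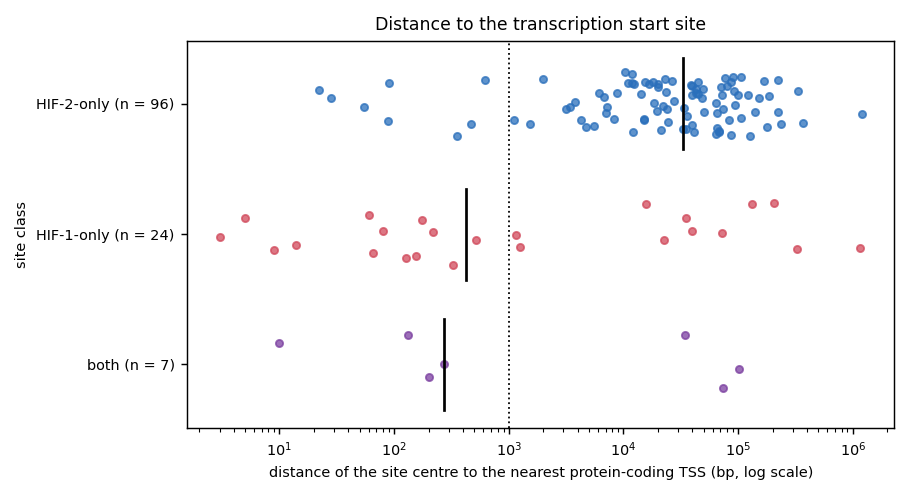
Distance from the centre of each site to the nearest protein-coding TSS (bp, log scale) for the 7 sites of both isoforms and for the HIF-1-only (n = 24) and HIF-2-only (n = 96) classes, each point 1 site. Black bars are medians (0.275, 0.424 and 33.4 kb) and the dotted line is 1 kb; most HIF-2-only sites lie to its right.

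Over all peaks of each list, the comparison of libraries depended on the score that a peak needed. The promoter-proximal share of peaks was 9.93% and 6.29% in the HIF-1α libraries and 6.53% and 6.63% in the HIF-2α libraries, 1.53 points apart in the means (p 1 by exact permutation, two-sided, 2 against 2). The HRE core share was 32.6% and 28.2% for HIF-1α and 31.9% and 40.3% for HIF-2α (difference −5.70, exact permutation p 0.667). Keeping peaks that scored 100 or more, HIF-1α was higher by 56.3 points in promoter share and by 29.7 points in HRE core share (exact permutation p 0.333 for each, the smallest possible). The AP-1 share was 3.69% and 3.99% for HIF-1α and 8.89% and 10.97% for HIF-2α, against 3.08% to 4.04% in the control windows of these 4 lists. The difference of −6.09 points exceeded the spread within either isoform, but 2 libraries against 2 cannot give an exact permutation p below 0.333, which was reached here (adjusted p 0.533 over 8 tests), and it was −19.4 points in peaks that scored 100 or more. Both HIF-1α libraries also lay under both HIF-2α libraries in AP-1 share at 0.5% oxygen for 6, 16 and 48 h and in the WT cells.

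HIF-1β divided the HIF-2-only sites into 49 with a HIF-1β peak at 3% oxygen in at least 1 replicate and 47 without, whereas 97.7% of the 43 HIF-1α sites had such a peak (87.7% to 99.9%). The median HIF-2α score of the 47 was 93.2 in replicate 1 and 109 in replicate 2, against 72.9 and 129 for the 49, so that the order differed between replicates. Of the 10 HIF-2-only sites ranked highest, 3 had HIF-1β, while all 10 of the HIF-1-only class did. An HRE core was found in 41 of the 49 sites with HIF-1β (83.7%, 70.3% to 92.7%; controls 31.6%) and in 15 of the 47 without (31.9%, 19.1% to 47.1%; controls 23.4%, 15.3% to 33.3%). AP-1 motifs were found in 13 of 49 (26.5%, 14.9% to 41.1%; controls 7.14%) and 5 of 47 (10.6%, 3.55% to 23.1%; controls 4.26%). Windows around the core are shown for the HIF-2-only sites with HIF-1β that ranked highest, and for some at promoters or near genes of matrix and growth factor biology.
AC092291.2 (chr16:14458451-14458511, minus strand): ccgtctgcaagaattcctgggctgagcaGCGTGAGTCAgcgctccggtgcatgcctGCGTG
FRMD4A (chr10:14439277-14439337, plus strand): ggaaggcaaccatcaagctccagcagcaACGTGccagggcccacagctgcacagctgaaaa
ECE1 (chr1:21565075-21565135, plus strand): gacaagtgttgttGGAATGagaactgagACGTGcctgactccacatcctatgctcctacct
TGFBI (chr5:135394152-135394212, plus strand): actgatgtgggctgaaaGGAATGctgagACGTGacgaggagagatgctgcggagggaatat
TPST2 (chr22:26946655-26946715, minus strand): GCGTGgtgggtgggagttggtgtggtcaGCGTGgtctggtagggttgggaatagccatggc
PLOD2 (chr3:145879101-145879129, minus strand): caaacagtccagACGTGgggcccaggagg
STC2 (chr5:172882322-172882382, plus strand): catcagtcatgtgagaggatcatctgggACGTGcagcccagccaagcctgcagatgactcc
OSMR (chr5:38846167-38846195, minus strand): gtcctcggcggcGCGTGgggcgcgggtgc

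HIF-2-only sites with HIF-1β lay near genes of varied function. Some of these were genes of the matrix and cell surface, whose share was not tested. PLOD2 (ENSG00000152952.14_15; chr3:145878848-145879364), the lysyl hydroxylase of collagen, was called at its promoter with HIF-2α scores of 72.1 and 86.6 and HIF-1β scores of 251 and 98.0. LOXL2, a lysyl oxidase, had a site in an intron, 11.9 kb upstream of the nearest annotated TSS, with 94.5 and 263. TGFBI, an extracellular matrix protein induced by TGF-β, scored 97.6 and 137 with the core at the very centre of its promoter site. TPST2, a sulfotransferase of secreted proteins, scored 86.7 and 147, and OSMR, the oncostatin M receptor, 50.4 and 117. BHLHE40, a circadian and hypoxia-regulated repressor, scored 54.6 and 260 at its promoter, without a core in the window. At OSMR and BHLHE40 the first HIF-2α replicate stood near the limit of 50. The promoter site of ZNF395 scored 59.6 and 67.0, low in both replicates.

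Further HIF-2-only sites with HIF-1β were distal. The site in an intron of FRMD4A, 64.8 kb from the TSS, scored 201 and 373, and that in an intron of ECE1, the endothelin-converting enzyme, scored 322 and 209. A pair of sites 2.53 kb apart lay 11.8 and 14.3 kb from EDN2, an endothelin gene, and scored 89.5 and 124, and 61.2 and 79.7. CCN1, a matricellular protein gene, had a site 26.6 kb away that scored 207 and 201. The site 127 kb from STC2, the stanniocalcin gene, scored 61.8 and 99.3 and had HIF-1β in 1 replicate. At AC092291.2, the site 106 kb from the TSS in LINC02130 scored 209 and 381.

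The sites without a HIF-1β peak at 3% included those ranked highest in the HIF-2-only class. The first by rank, 33.0 kb from SERTAD4 in the pseudogene ST13P19, scored 435 and 675, and the second, in an intron of ROBO2 (an axon guidance receptor), 580 and 342. The third lay in another pseudogene of the same family, ST13P6, near ST3GAL1. Pseudogenes have near-identical relatives, and how reads shared with them were placed cannot be told from the lists. A pair of sites 103 bp apart, 6.83 and 7.16 kb upstream of SNAPC1, the latter starting 6905 bp beyond the annotated end of HIF1A, scored 329 and 316, and 410 and 223. So close a pair is not independent, and neither site held an HRE core, an AP-1 motif or CATTCC. CES3, a carboxylesterase, had a site in a coding exon that scored 550 and 235. At ADAMTS18, a metalloprotease gene, the site 121 kb away held 3 cores (a CACGTG counting as 2) without a HIF-1β peak and scored 200 and 256. The site 42.9 kb from TGFA, a ligand of the epidermal growth factor receptor, scored 72.8 and 56.1 and held 2 cores.

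What many of the sites without HIF-1β shared was CATTCC, the core recognised by the TEAD family of factors of the Hippo pathway. This motif was picked out after the sequences had been seen. It was present within 100 bp of the centre in 30 of the 47 (63.8%, 48.5% to 77.3%) against 5.32% of their control windows (1.75% to 11.98%), and in 19 of the 49 with HIF-1β (38.8%, 25.2% to 53.8%; controls 9.18%). It was found in 1 of the 24 HIF-1-only sites and in none of the 7 sites of both isoforms, which allows a share of up to 41.0%. Of the 40 HIF-2-only sites that lacked an HRE core, 25 held it, and 24 of the 56 with a core did. Not all of these sites are independent. The windows near SERTAD4, LPIN1, NT5C2 and SLC9A9, all without HIF-1β, share a long, near-identical stretch of sequence that holds the motif. The intervals above count each such copy as a separate site. Among the sites with both a TEAD-type core and no HIF-1β were the promoters of CCN2 and AMOTL2, which are known targets of TEAD factors, with scores of 60.9 and 62.2 and of 120 and 97.3. Other sites differed. A further HIF-2-only site near AMOTL2, 47.4 kb from its promoter site, had HIF-1β and held neither CATTCC nor an HRE core. The site near CCN1 held CATTCC together with an HRE core and had HIF-1β. The windows of the 2 sites ranked first and of the CCN2 and AMOTL2 promoters are shown, since they carry the motif, which is present once at the AMOTL2 promoter, 4 times at SERTAD4 and 5 times, in a short tandem repeat, at ROBO2.
SERTAD4 (chr1:210439059-210439258, plus strand): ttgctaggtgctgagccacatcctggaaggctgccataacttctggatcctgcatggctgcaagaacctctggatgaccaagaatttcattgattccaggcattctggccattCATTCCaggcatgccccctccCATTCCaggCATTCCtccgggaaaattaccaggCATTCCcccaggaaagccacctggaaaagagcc
ROBO2 (chr3:76546895-76547094, plus strand): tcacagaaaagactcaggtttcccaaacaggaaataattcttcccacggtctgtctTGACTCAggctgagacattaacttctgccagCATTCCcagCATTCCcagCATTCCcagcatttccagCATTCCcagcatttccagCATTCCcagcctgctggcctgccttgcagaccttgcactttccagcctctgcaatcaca
AMOTL2 (chr3:134093325-134093386, minus strand): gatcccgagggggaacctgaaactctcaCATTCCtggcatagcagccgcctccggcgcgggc
CCN2 (chr6:132272574-132272635, plus strand): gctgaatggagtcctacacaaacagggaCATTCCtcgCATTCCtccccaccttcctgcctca

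The motif was then counted in libraries and at peaks that had no part in its choice. In the 16 HIF-1α and HIF-2α libraries of HKC-8 at 0.5% oxygen, leaving out every peak that overlapped a site classed at 3%, CATTCC was present in 11.9% and 11.4% of HIF-1α peaks and 15.5% and 17.3% of HIF-2α peaks at 6 h. At 16 h the shares were 9.35% and 11.5% for HIF-1α and 19.6% and 25.6% for HIF-2α, at 48 h 11.6% and 13.3% against 17.6% and 13.4%, and in WT cells 18.46% and 17.6% against 24.9% and 24.2%. In each of the 4 conditions both HIF-2α libraries lay above both HIF-1α libraries, at 48 h by the least. There the second HIF-2α library had 13.40% of only 209 peaks, against 13.29% in the second HIF-1α library, so the order at 48 h is not firm. The mean difference, HIF-1α minus HIF-2α, was −6.62 points (p 0.00154 by exact permutation, two-sided, 16 libraries, labels permuted within condition, adjusted p 0.00617), the smallest p that the 1296 arrangements can give. Without the 48 h libraries it was −7.81 points (exact permutation p 0.00926). HIF-1β peaks at 3% held the motif in 15.4% and 16.6%. Over all peaks of a list, it also exceeded control windows in HIF-2α KO cells. HIF-1β peaks there held it in 18.52% and 19.6% (controls 10.59% and 11.17%), and HIF-1α peaks in 17.35% and 15.02% (controls 11.36% and 9.81%). In HIF-1α KO cells HIF-1β peaks held it in 22.16% and 21.47% (controls 10.4% and 10.74%). At 0.5% for 6 h HIF-1α peaks held it in 11.95% and 11.43% (controls 10.4% and 10.21%). These contrasts were not tested. Each isoform was precipitated with a single antibody throughout, so what is bound by the isoform and what is bound by its antibody cannot be told apart here, and HIF-2α was not precipitated from HIF-2α KO cells.

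**Figure D3:**
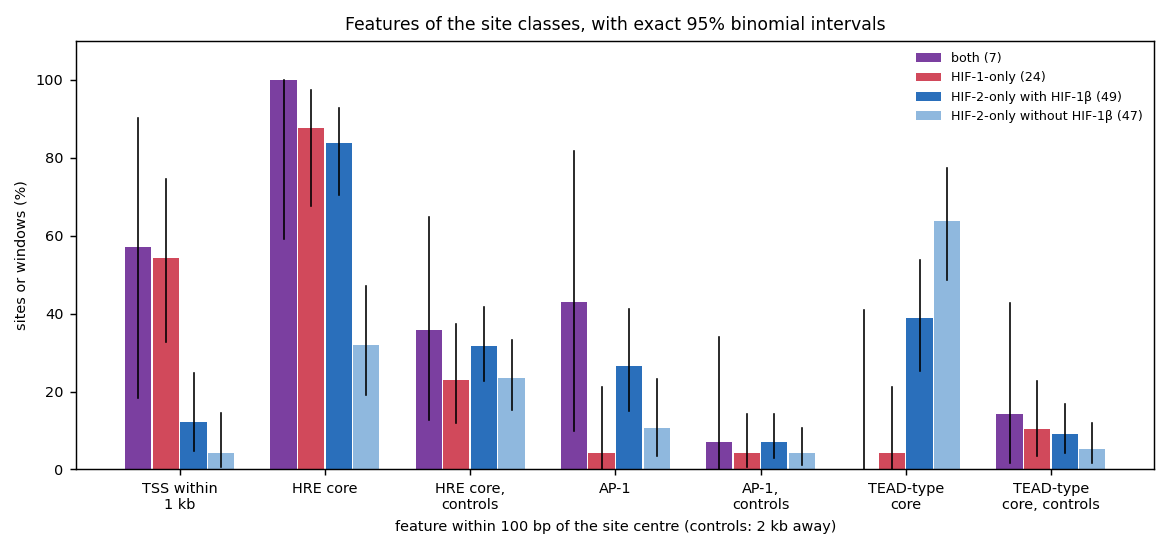
Share of sites or windows (%) with a TSS within 1 kb, an HRE core, an AP-1 motif or a TEAD-type core within 100 bp of the site centre, and the same motifs in control windows 2 kb away, for the 7 sites of both isoforms, 24 HIF-1-only sites, and 49 and 47 HIF-2-only sites with and without HIF-1β. Lines are exact 95% binomial intervals; the HRE core is at 83.7% in the sites with HIF-1β and 31.9% in those without, and the TEAD-type core at 38.8% and 63.8%.

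Where a site held a core, the one nearest to the centre was ACGTG rather than GCGTG in 16 of 21 HIF-1-only sites (76.2%, 52.8% to 91.8%), in 39 of 56 HIF-2-only sites (69.6%, 55.9% to 81.2%) and in 7 of 7 sites of both. In the control windows it was ACGTG in 24 of 69 (34.8%, 23.7% to 47.2%). Its median distance from the centre was 26 bp for HIF-1-only and 21.5 bp for HIF-2-only sites, against 48 bp in the controls.

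The 18 sites with the other isoform in 1 replicate had further genes of glycolysis. HIF-1α was called in both replicates and HIF-2α in 1 at ENO1 (enolase), GAPDH (2 sites 0.962 kb apart), SLC16A3 (a lactate exporter), AK4, DDIT4 (an inhibitor of mTOR signalling), P4HA1, RRP12, MGAT5B, TMEM63B, near ZNF395 and at MIR3648. At ENO1 the HIF-1α scores were 727 and 312 and the single HIF-2α score 58.0, and at SLC16A3 they were 449 and 158 against 112. HIF-2α was called in both replicates and HIF-1α in 1 at SCARB1, SEMA4B, NPPB, KCNS1, KLHL36 and on chromosome 9. NPPB, a natriuretic peptide gene, scored 189 and 341 for HIF-2α and 55.9 for HIF-1α. All 18 held an HRE core and had HIF-1β. In 6 of the 12 HIF-1α sites both HIF-1α scores exceeded the single HIF-2α score, and in 5 of the 6 HIF-2α sites both HIF-2α scores exceeded the HIF-1α score, though scores of different lists are not on 1 scale.

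Genes of the hypoxic programme lay near sites of each isoform. Over 11 lists of 108 protein-coding genes put together from general knowledge of hypoxia, with earlier results of these data known, 20 (18.52%) were the nearest gene of a HIF-1α site of both replicates, against 0.207% of all 19794 protein-coding genes. For HIF-2α it was 13 of 108 (12.04%), against 0.525%. Of 18 genes of glucose uptake and glycolysis, 6 lay near a HIF-1α site (ALDOA, ENO1, GAPDH, GPI, PFKFB3, SLC2A3) and 2 of these near a HIF-2α site. Of 8 genes of lactate and pyruvate fate, 3 lay near HIF-1α sites (LDHA, PDK1, SLC16A3) and 2 near HIF-2α sites. Of 6 genes of mitophagy and mTOR stress, 3 lay near HIF-1α sites (BNIP3, BNIP3L, DDIT4) and none near HIF-2α sites. Of 10 vascular and secreted factors, STC2 and TGFA lay near HIF-2α sites and none near HIF-1α sites. Collagen hydroxylases and lysyl oxidases were split, with P4HA1 and P4HA2 near HIF-1α and PLOD2 and LOXL2 near HIF-2α sites among 8 genes. The lists also gave PPP1R3C for glycogen, KDM3A among 6 histone demethylases, SLC16A3 among 5 genes of carbonic anhydrases and pH, and none of 10 genes of HIF subunits and oxygen sensing or of 9 AP-1 genes. From the common hypoxia signature of 21 genes, 4 lay near HIF-1α sites (ANKRD37, ARRDC3, NDRG1, ZNF395) and 4 near HIF-2α sites (ARRDC3, BHLHE40, NDRG1, ZNF395). The nearest gene is not shown to be a target, the more so for distal sites.

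The classes set at 3% were then looked up at 0.5% oxygen for 6 h. Of the 24 HIF-1-only sites, 20 (83.3%, 62.6% to 95.3%) had a HIF-1α peak there in at least 1 replicate and 19 in both. The 4 without were near EPHB3, KPNA2, OR4D9 and PPM1H. Of the 96 HIF-2-only sites, 90 (93.8%, 86.9% to 97.7%) had a HIF-2α peak in at least 1 replicate and 72 in both. HIF-2α was called at 6 of the HIF-1-only sites (3 in both replicates), and HIF-1α at 19 of the HIF-2-only sites (6 in both). The HIF-1-only promoters of BNIP3L, GPI and KDM3A were thus sites of both isoforms at 0.5%, as were the HIF-2-only sites near PLOD2, ECE1, CUBN, KCMF1 and RPUSD4. Over 6, 16 and 48 h at 0.5%, FAM174B, NARF, RLF and VGLL4 had HIF-1α in all replicates and no HIF-2α call. In the HIF-1α KO cells, however, HIF-2α was called in both replicates at NARF and VGLL4, and in neither at FAM174B and RLF. In the HIF-2-only class, 9 sites had HIF-2α in all 6 replicates with no HIF-1α call, near CCN1, COL4A2, EPS15, LPIN1, ROBO2, SERTAD4, ST3GAL1 and the pair at SNAPC1. The SERTAD4 and LPIN1 windows are near-identical in part, and the ST3GAL1 site lies in a pseudogene of the same family as the SERTAD4 site.

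Seen from the other side, 37 of the 163 HIF-1α sites at 0.5% for 6 h (22.7%, 16.5% to 29.9%) and 85 of the 257 HIF-2α sites (33.1%, 27.4% to 39.2%) were already called in both replicates at 3%. In the 0.5% lists their median score percentile was 98.6 and 98.5 for HIF-1α, against 90.6 and 90.1 for the remaining sites, and 94.9 and 95.99 for HIF-2α, against 86.2 and 86.0. For HIF-1α, 62.2% (44.8% to 77.5%) of the sites in both replicates at 3% lay within 1 kb of a TSS and 89.2% held an HRE core, and among the 85 sites in neither replicate at 3% these shares were 55.3% (44.1% to 66.1%) and 89.4%. For HIF-2α they were 15.3% and 64.7%, against 20% and 63.75% (n = 80). The 92 HIF-2α sites called in 1 replicate at 3% lay within 1 kb of a TSS in 13.04% and held an HRE core in 77.2% (67.2% to 85.3%), and the 41 such HIF-1α sites did so in 65.9% and 87.8%. CATTCC was present in 37.6% (27.4% to 48.8%), 29.3% (20.3% to 39.8%) and 22.5% (13.9% to 33.2%) of the HIF-2α sites called in both, 1 and neither replicate at 3%.

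The classes were next read in the 16 other HIF-1α and HIF-2α libraries of unedited HKC-8 cells. For each library the percentage of HIF-1-only sites called, minus that of HIF-2-only sites, was taken as its preference. At 0.5% for 6 h it was 68.2 ± 9.58 percentage points in HIF-1α libraries and −65.6 ± 10.3 in HIF-2α libraries (mean ± SD, n = 2). At 16 h it was 69.3 ± 5.16 and −62.5 ± 16.2, at 48 h 59.4 ± 13.3 and −35.9 ± 18.4, and in WT cells 26.6 ± 2.21 and −45.8 ± 10.3. The mean difference was 108 points (p 0.00154 by exact permutation of labels within condition, two-sided, adjusted p 0.00617), again the smallest possible, and the isoforms did not overlap in any of the 4 conditions. The test asks whether each antibody called the same sites again, so isoform and antibody cannot be told apart by it. At 48 h the second HIF-2α replicate had 237 peaks and a preference of −22.9 points, and the first had 1376 peaks and −48.96. Without the 48 h libraries the mean difference was 113 points (exact permutation p 0.00926). The WT HIF-1α and HIF-2α lists had 1529 to 6736 peaks. Each was longer than any HIF-1α or HIF-2α list of the 6, 16 and 48 h libraries. In WT cells HIF-2α was called at 13 and 10 of the 24 HIF-1-only sites. HIF-1α was called in WT cells at 40 and 37 of the 49 HIF-2-only sites with HIF-1β. With the HIF-2-only class limited to those 49 sites the mean difference was 96.2 points, and limited to the 47 without HIF-1β it was 121 (exact permutation p 0.00154 for both).

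**Figure D4:**
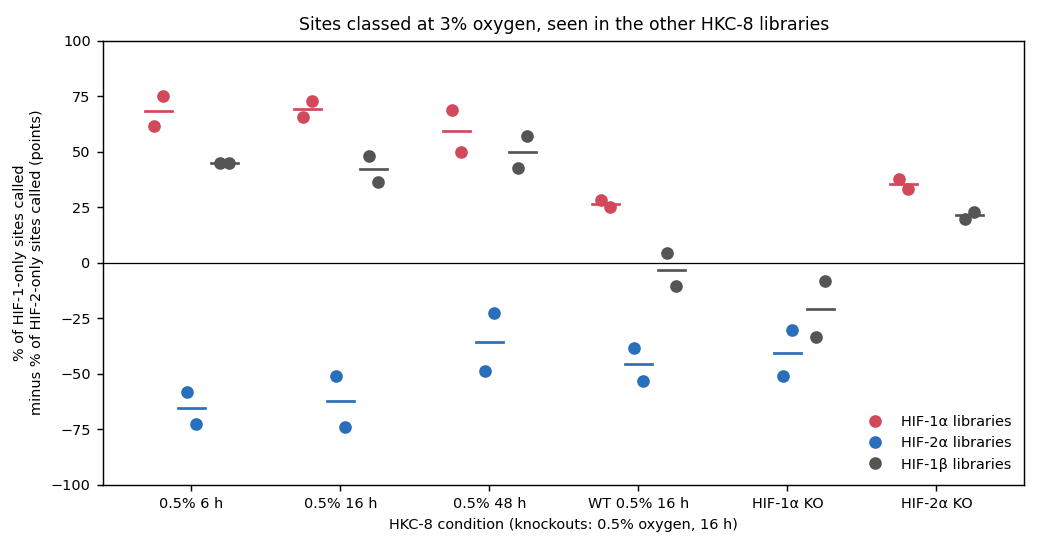
Preference of each HKC-8 library at 0.5% oxygen (points, 1 per library; bars, means of 2), as the percentage of the 24 HIF-1-only sites called minus that of the 96 HIF-2-only sites called. HIF-1α libraries lie above 0 and HIF-2α libraries below 0 in every condition. HIF-1β libraries are below 0 for the HIF-1α KO clone, above 0 for the other knockout and on both sides of 0 in WT cells.

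HIF-1β was then read in the knockout clones. It was called at 18 and 17 of the 24 HIF-1-only sites in WT cells, at 7 and 16 in HIF-1α KO cells and at 17 and 18 in HIF-2α KO cells. At the 96 HIF-2-only sites it was called at 68 and 78 in WT, 60 and 72 in HIF-1α KO and 49 and 50 in HIF-2α KO cells. The preference of HIF-1β was −20.8 ± 17.7 points in HIF-1α KO cells and 21.4 ± 2.21 in HIF-2α KO cells (n = 2). In WT cells it was −3.125 ± 10.3, with replicates at 4.17 and −10.4 points. The second HIF-1α KO replicate, at −8.33, lay between these WT replicates. The clones differed by 42.2 points without overlap (exact permutation p 0.333, two-sided, adjusted p 0.533). This p is the smallest that 2 against 2 libraries allow. The HIF-1α KO replicates differed much, with 3375 and 5781 peaks. Of the 17 HIF-1-only sites with HIF-1β in both WT libraries, 2 (FAM174B and RLF) had it in neither HIF-1α KO library and 7, ANKRD37 and NARF among them, had it in both. All 17 had it in both HIF-2α KO libraries. Of the 66 such HIF-2-only sites, 15 had HIF-1β in neither HIF-2α KO library, and 45 had it in both. Of the 15, 7 had it in both HIF-1α KO libraries, near SNAPC1 (2 sites), ST3GAL1, LPIN1, GADD45B, C11orf86 and PRMT8, while SERTAD4, CES3, COL4A2, AXL, IGFBP3 and RANGAP1 had it in 1 and LIF and PLB1 in neither.

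The 47 HIF-2-only sites that had no HIF-1β at 3% were seen by HIF-1β in the more extensive WT lists, at 23 and 30 sites. In HIF-1α KO cells they were called at 13 and 23 sites and in HIF-2α KO cells at 6 and 8. HIF-1α was called at 0 of the 47 in both 0.5% 6 h libraries, which allows a share of up to 7.55%, and at 9 and 7 in WT cells. HIF-2α was called at 37 and 39 of them at 0.5% for 6 h and at 41 and 43 in WT cells.

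**Figure D5:**
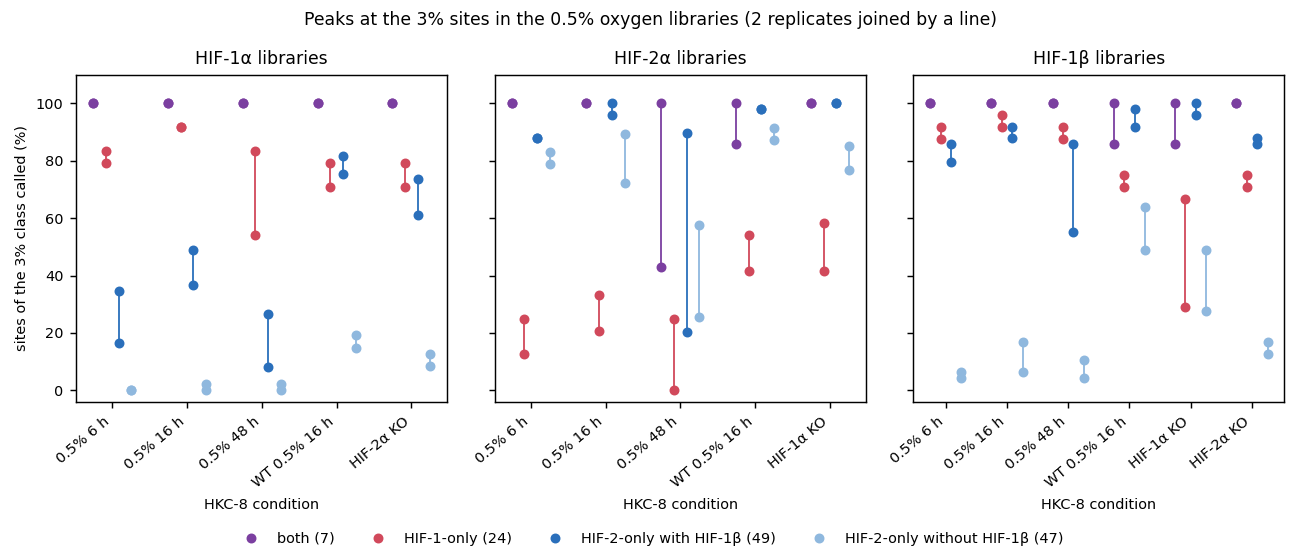
Percentage of the sites of each 3% class that had a peak in the HIF-1α, HIF-2α and HIF-1β libraries of HKC-8 at 0.5% oxygen (2 replicates joined by a line). The 47 HIF-2-only sites without HIF-1β at 3% are at 0 to 19.1% in the HIF-1α libraries, at 25.5% to 91.5% in the HIF-2α libraries, and at 48.9% and 63.8% in the HIF-1β libraries of WT cells.

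Outside HKC-8 the classes were found again in part. RCC4, a renal carcinoma line without functional von Hippel-Lindau protein that keeps HIF-α in normal oxygen, had HIF-1α at 21 and 18 of the 24 HIF-1-only sites and HIF-2α at 11 and 7. At the 96 HIF-2-only sites it had HIF-1α at 44 and 29 and HIF-2α at 69 and 57. In HepG2, a liver cancer line kept at 0.5% oxygen for 16 h, HIF-1α was called at 24 and 28 of the 96 and HIF-2α at 19 and 21. HIF-2-only sites were thus not called more often by HIF-2α there. At the HIF-1-only sites the libraries labelled HIF-1α had 8 and 17 calls and those labelled HIF-2α had 17 and 8, so that replicates of 1 label differed by more than the labels did. Labels exchanged in 1 replicate could give such counts, which was not tested. The labels were kept, and HepG2 entered no test.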

How the data were processed

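The data were 50 lists of ChIP-seq peaks, 1 per library, of which the 4 of HIF-1α and HIF-2α at 3% oxygen for 6 h were compared. Per the labels and the study's methods, the authors trimmed reads with Trim Galore 0.3.3, aligned them to GRCh37 with BWA 0.7.5a-r405, processed them with SAMtools 0.1.19, Picard 1.106 and bedtools 2.17.0, and called peaks per library with MACS against input (version not given in the sources used here). The study restricted its own site sets further, to peaks found by both MACS and a second caller, T-PIC, above a background level and in both replicates. Its canonical HIF-1 and HIF-2 sites also had to be called in both HIF-1β replicates, as 37 of the 96 HIF-2-only sites here were. The lists used here are the MACS calls of single libraries and include peaks of 1 replicate, so the sites here are not those sets. The deposited score of a peak is −10 times the log10 of its p-value, with a lowest value of 50. Lists hold no read counts, so depth is unknown, and a weak site can be missing from a shallow library. From the 4 lists, 27 peaks off chromosomes 1 to 22, X and Y were left out.

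Peaks were joined where they overlapped by 1 bp. Distances run from the site centre to the nearest of 89204 protein-coding transcript starts (GENCODE 44 on GRCh37). Motifs were searched on both strands within 100 bp of the centre, with 2 control windows per site 2 kb away. A CACGTG counted as 2 HRE cores. Intervals are exact 95% binomial intervals and cover counting error only. Tests were exact permutation tests over libraries (Python 3.11.15, SciPy 1.17.1, NumPy 2.4.6, pysam 0.24.0), Benjamini-Hochberg adjusted over 8 tests, and the code was tested on simulated data. They were two-sided, except that the test of list overlap within against between isoforms was one-sided. The genes named are those of the 10 sites of best mean score rank per class, of every class site within 1 kb of a start site, and every member of the gene lists; others were named after their values were seen. Members and lists were chosen with earlier results of these data known. CATTCC, its test and the split by HIF-1β were added after seeing the data.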

Additional observations from a re-analysis of the deposited data

Results flagged for a closer look

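One site was called by different isoforms at the 2 oxygen levels after 6 h. The site 10.2 kb from MRPL45 (chr17:36442681-36442839) was HIF-2-only at 3%, with HIF-2α scores of 54.6 and 94.1 and no HIF-1α peak, whereas at 0.5% for 6 h HIF-1α scored 98.5 and 72.6 and neither HIF-2α list held a peak. The 54.6 lies near the lowest score of 50, and at 0.5% for 16 h both isoforms were called there in both replicates. The difference was not tested. The site was called in 44 of the 50 lists.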

How the results depend on the processing

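Of 195 alternatives, 155 left the result on the same side of its threshold or within its spread. With peaks of a score of at least 100, the log2 ratio of peak numbers was −1.09 and the HRE core difference 29.7 points, both reversed, while the promoter share difference was 56.3 and the AP-1 difference −19.4 points; the HIF-1-only class had HIF-1β at 100%, a TSS within 1 kb at 81.3%, AP-1 at 0% and a HIF-1α call at 0.5% in 100%, there were 35 HIF-2-only sites (HIF-1β 37.1%, TSS 2.86%) and 2 of both. A TSS lay within 5 kb of 16.7% of HIF-2-only sites, and within 1 kb of 22.9% with all annotated transcripts. Within 50 bp of the centre, HRE cores were in 66.7% and 46.9% and AP-1 motifs in 0% and 9.38% of the HIF-1-only and the other class, and anywhere in the site AP-1 was in 34.4% of HIF-2-only sites. Requiring both replicates gave 38.5% with HIF-1β and 75% called at 0.5% for HIF-2-only sites. The causes were not tested.

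Leaving out replicates, so that 1 or both isoforms rest on 1 list, gave 27 to 1204 HIF-1-only sites, 99 to 944 HIF-2-only sites and 10 to 22 of both. The log2 ratio of peak numbers ran from −0.567 to 1.14, the promoter difference from −0.337 to 3.4, and the HRE difference from −12.05 to 0.652. The preference difference ran from 105.2 to 111 and that of CATTCC from −6.67 to −6.56, each with the exact permutation p of 0.125 that 1 replicate allows. With the replicate block, exact permutation p was 1 for peak number, promoter and HRE shares, 0.5 for AP-1 (−6.09 points) and 0.00781 for preference (108 points) and CATTCC (−6.62 points). Lists with the same replicate number of different isoforms overlapped by 2.96% and those with different numbers by 2.68%, and nothing else pairs them. Read depth, unknown here, limits every statement that a site was not called.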
